A study of Saccharomyces cerevisiae with 2 samples.

Results

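The genes described here are those for the proteins of the cytosolic ribosome in budding yeast, taken from 2 libraries of UV crosslinking and analysis of cDNA (CRAC), a method that sequences the RNA crosslinked to a purified protein. The members are the protein-coding features named RPL or RPS with a number and an optional A or B, together with RPP0, RPP1A, RPP1B, RPP2A and RPP2B. They number 97 of the 2635 named features with reads in either library, and all 97 names were found in the R64 gene table. That table holds 137 genes named in this way, 81 for the large and 56 for the small subunit. The other 40, 27 large and 13 small, are listed for neither library in the tables used here.

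The first library came from cells whose Bud22, a nucleolar factor needed to make the small ribosomal subunit, carried a His-TEV-protein A tag. The second came from the untagged W303 wild type, which gives the background of the purification. By the labels, cultures grown in YPD to an OD600 of 1.0 were moved to SDC-URA, where cells took up the uracil analogue 4-thiouracil over 4 h, and crosslinking with light of 365 nm lasted 30 min. In the control, the growth description speaks of the tagged strain while title, source and genotype say wild type, and the group used here is the one of the genotype. With 1 library in each group there is no replicate error and no p-value. What is compared is 2 libraries, not the strains at large.

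Each cytosolic ribosomal protein is made from 1 gene or from a pair of paralogous genes, which often encode nearly the same protein. Their mRNAs are among the most abundant of growing yeast cells, and many of them are spliced, which makes them unusual among yeast mRNAs. A few of their introns contain a small nucleolar RNA (snoRNA), a guide for modification of ribosomal RNA that is released from the excised intron.

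Few ribosomal protein mRNAs had reads in the Bud22 library, as for protein-coding features at large, and many had low counts in the control. Sense reads fell on 6 members with Bud22, among them RPL18B, RPL37A, RPL7B, RPL8B and RPS22B, and on all 97 in the control. Of all 2032 listed protein-coding features, 106 had a sense read with Bud22 and 1723 in the control. The sum over members was 143 sense reads with Bud22, against 498 for the control, of 215982 and 132895 reads over all named features. That is 0.0662% (exact Clopper-Pearson 95% interval 0.0558 to 0.0780) with Bud22, against 0.375% (0.343 to 0.409) in the control. The ratio of these shares was 0.177 (exact conditional 95% interval 0.146 to 0.213).

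These counts rest on fewer distinct reads. The sense overlaps of a library, 256491 with Bud22 and 154050 in the control, exceed its mapped reads, 188065 and 97270, so a read can be counted at more than 1 feature. The files also give, for each feature, a number that, judged from its values, counts distinct read entries. Reads of 1 entry may be PCR copies of 1 molecule, so all intervals cover counting error only. The members held 14 entries with Bud22 and 222 in the control, which is 10.2 reads per entry with Bud22 and 2.24 in the control. By entries the ratio was 0.396 (0.213 to 0.678).

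Other protein-coding features were lower as well. They held 6738 reads on 367 entries with Bud22, against 13778 on 6000 in the control. Their ratio was 0.301 (0.292 to 0.310) by reads and 0.384 (0.344 to 0.426) by entries. Within the protein-coding reads the members took 2.08% (1.75 to 2.44) with Bud22 and 3.49% (3.19 to 3.80) in the control, a ratio of 0.596 (0.491 to 0.719). Within the protein-coding entries they took 3.67% (2.02 to 6.09) with Bud22 and 3.57% (3.12 to 4.06) in the control, and the ratio of 1.03 (0.554 to 1.76) had an interval including 1. Reading frames of the rDNA region hold a large part of the reads on the other protein-coding features. YLR154C-G alone held 3439 sense reads with Bud22, against 5019 for the control. Leaving out the YLR154, YLR157 and YLR162 names, the others held 3242 reads on 206 entries with Bud22 and 8666 on 4322 in the control. Their ratio was then 0.230 (0.221 to 0.240) by reads and 0.299 (0.259 to 0.344) by entries, and the members' ratio within the protein-coding reads was 0.777 (0.641 to 0.938).

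In number of genes, 6 of 137 ribosomal protein genes (4.38%, 1.62 to 9.29) had a read with Bud22, and 97 (70.8%, 62.4 to 78.3) had one in the control, with genes that are not listed taken as without a read. These numbers depend on depth, which was 5920 entries over all named features with Bud22 and 37130 in the control. Of all 6021 protein-coding genes in the reference table, 96 (1.59%, 1.29 to 1.94) had a read with Bud22 and 1684 (28.0%, 26.8 to 29.1) in the control. In both libraries the percentage was higher for ribosomal protein genes than for protein-coding genes at large. The 2 intervals overlap with Bud22, where counts are few, and are apart in the control. Only 4 of the 6 genes had Bud22 reads not matched by the count of an intronic snoRNA. A mitochondrial list was taken by the names MRPL, MRPS, MRP, RSM, MRX and IMG, not all of which stand for ribosomal proteins. Of its 86 genes, 1 was seen with Bud22 and 25 (29.1%, 19.8 to 39.9) in the control.

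Most members had very few control reads. The range was 1 to 67, with a median of 4. At most 5 reads fell on 72 of the 97, and 43 rested on a single entry. Large subunit members had a median of 5 control reads and small subunit members a median of 3, with a highest value of 67 and 9. Only 4 reads over 2 members, RPL31B with 3 and RPL39 with 1, were antisense in the control, and none were antisense with Bud22. Antisense reads made up 0% of the members' reads with Bud22 and 0.797% in the control. Over all protein-coding features they made up 60.8% with Bud22 and 41.0% in the control. Those features include the reading frames of the rDNA region, among them YLR154W-A and YLR162W with 0 sense reads in both libraries. The antisense share without these frames was not computed.

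**Figure D1:**
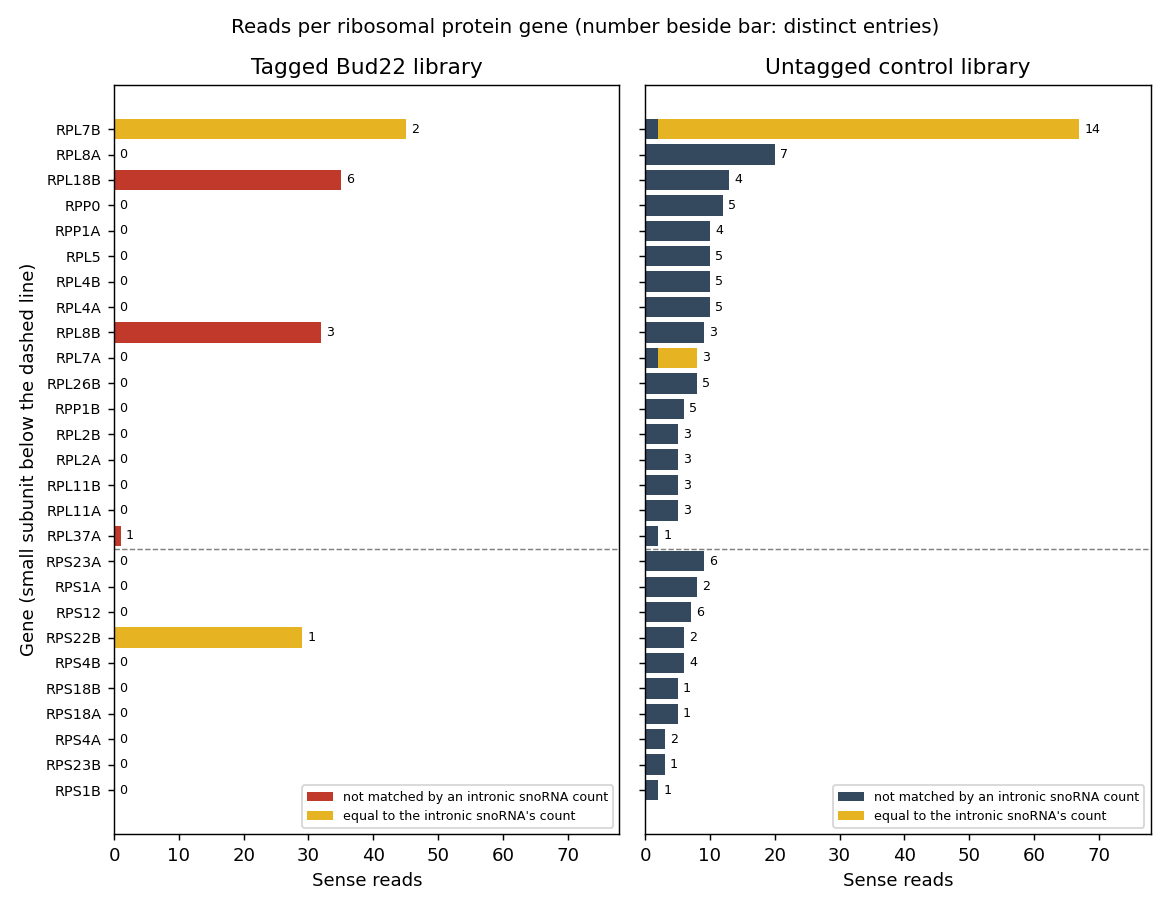
Sense reads (x axis) of members chosen for reads with Bud22, high control counts or a highly counted pair, large subunit above the dashed line and small subunit below it, in the Bud22 library (left) and the control (right), with the number of distinct entries beside each bar and the part equal to the count of the intronic snoRNA in yellow. With Bud22, RPL7B (45 reads) and RPS22B (29) are yellow throughout, RPL18B (35) and RPL8B (32) hold nearly all other reads, and in the control most bars are short, with yellow at RPL7B and RPL7A.

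Of the 6 genes seen with Bud22, RPL7B and RPS22B are snoRNA hosts, and all of their reads were matched by the snoRNA. RPL7A and RPL7B, which encode the same large subunit protein, contain the snoRNAs SNR39 and SNR59, and RPS22B, which encodes a small subunit protein, contains SNR44. SNR59 and SNR39 are methylation guides of the box C/D class, and SNR44 is a pseudouridylation guide of the box H/ACA class. In the R64 table each lies inside its host gene, so that a read on the snoRNA can be counted at the host too. Counts were compared, not single reads.

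RPL7B had 45 sense reads on 2 entries with Bud22 and 67 on 14 entries in the control. SNR59 had 45 reads on 2 entries with Bud22 and 65 on 13 in the control. The SNR59 count thus equalled that of RPL7B with Bud22, which left 0 reads with Bud22 and 2 reads on 1 entry in the control.

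RPS22B had 29 reads on 1 entry with Bud22 and 6 reads on 2 entries in the control. SNR44 had 29 reads on 1 entry with Bud22 and none in the control. The 29 RPS22B reads with Bud22 equalled the SNR44 count, whereas none of the 6 control reads was matched by SNR44. The ratio of RPS22B, 2.97 (1.21 to 8.76) by reads and 3.14 (0.0532 to 60.2) by entries, therefore sets a count matched by the snoRNA against one that is not.

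RPL7A had no read with Bud22 and 8 on 3 entries in the control, of which SNR39 matched 6 reads on 2 entries. The hosts together held 74 of the members' 143 reads with Bud22 (51.7%, 43.2 to 60.2) and 81 of 498 in the control (16.3%, 13.1 to 19.8). By entries they held 3 of 14 with Bud22 (21.4%, 4.66 to 50.8) and 19 of 222 in the control (8.56%, 5.23 to 13.0), with overlapping intervals. As a share of all named features their ratio was 0.562 (0.405 to 0.780) by reads and 0.990 (0.188 to 3.36) by entries. As a share of protein-coding reads it turned to 1.90 (1.36 to 2.63). With the snoRNA counts subtracted, the hosts held 0 reads with Bud22 and 10 on 4 entries in the control.

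Of 5 snoRNA hosts that are not ribosomal protein genes, IMD4 alone had Bud22 reads. IMD4, an enzyme of guanine nucleotide synthesis, had 24 reads on 1 entry with Bud22, equal to its intronic SNR54, against 11 reads in the control, of which SNR54 matched 3. The hosts EFB1, TEF4, ASC1 and NOG2 had no sense read with Bud22 and 10, 16, 5 and 2 in the control. In those 4 hosts the snoRNAs SNR18, SNR38, SNR24 and SNR191 matched 3, 12, 5 and 0 of the control reads.

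By subunit, both classes were lower with Bud22, and the small subunit class was represented by RPS22B alone. Large subunit members, the RPL genes and the stalk genes, held 114 reads on 13 entries with Bud22 and 346 on 148 in the control, and their ratio was 0.203 (0.163 to 0.251) by reads and 0.551 (0.287 to 0.971) by entries. Small subunit members held 29 reads on 1 entry with Bud22 and 152 on 74 in the control, which gave 0.117 (0.0761 to 0.176) by reads and 0.0848 (0.00212 to 0.487) by entries. By reads, large over small subunit was 3.93 with Bud22, against 2.28 in the control. By entries it was 13.0 with Bud22, against 2.00. The quotient of these was 1.73 (1.08 to 2.81) by reads, and 6.50 (0.937 to 279.9) by entries, an interval including 1. Without RPL7B, the most counted member in both libraries, it was 1.30 (0.789 to 2.17) by reads.

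With snoRNA counts subtracted from their hosts, an alternative chosen after seeing the data, no read of a small subunit gene was left with Bud22. The small subunit then had 0 reads and 0 entries with Bud22, against 152 reads on 74 entries in the control, an upper bound of 0.0151 for the read ratio and 0.321 for the entry ratio. The large subunit kept 69 reads on 11 entries, against 275 on 133 in the control, a ratio of 0.154 (0.117 to 0.202) by reads and 0.519 (0.253 to 0.959) by entries. Large subunit genes then made up 11 of 11 entries with Bud22 (71.5 to 100%) and 64.3% (57.3 to 70.8) in the control. These intervals take entries as independent, although 9 of the 11 entries lie on RPL18B and RPL8B. As a share of protein-coding entries, the upper bound for the small subunit was 0.835.

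RPL18B and RPL8B, put side by side here because of their values, held 67 of the 69 reads and 9 of the 11 entries that remained, against 22 reads on 7 entries in the control. Without both, and with snoRNA counts subtracted, the members held 2 reads on 2 entries with Bud22 and 405 on 200 in the control.

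RPL18B encodes 1 of the paralogous copies of a large subunit protein. It had 35 reads on 6 entries with Bud22 and 13 reads on 4 entries in the control. Its ratio was 1.66 (0.855 to 3.41) by reads, an interval including 1, and 9.41 (2.23 to 45.3) by entries.

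RPL8B, which also encodes a large subunit protein, had 32 reads on 3 entries with Bud22 and 9 reads on 3 entries in the control. The ratio was 2.19 (1.02 to 5.21) by reads and 6.27 (0.840 to 46.8) by entries. Its partner RPL8A had no read with Bud22 and 20 reads on 7 entries in the control, with an upper bound of 0.125 for the ratio by reads. RPL8B took all 32 reads of the pair with Bud22 (89.1 to 100%) and 31.0% in the control (15.3 to 50.8), but by entries 3 of 3 with Bud22 (29.2 to 100%) and 3 of 10 in the control (6.67 to 65.2%), with overlapping intervals.

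The reads on RPL8B had a counterpart in antisense reads of a reading frame on the opposite strand. Reads antisense to that frame lie on the strand of RPL8B. YLL044W, which by its systematic name neighbours RPL8B (YLL045C) on the opposite strand and has no entry in the reference table, had 0 sense reads and 32 antisense reads on 3 entries with Bud22, against 8 antisense reads on 2 entries in the control. Its antisense counts with Bud22 thus equalled the sense counts of RPL8B. Whether these are the same reads was not tested. Among opposite-strand reading frames that neighbour a member by name and are absent from the reference table, 9 had reads, and 8 of the 9 had antisense reads only. The genes RPL10, RPL28 and RPS2 are named here for these neighbours, after their values were seen. In the control, YLR339C beside RPP0 had 7 antisense reads against 12 sense reads on RPP0. YLR076C beside RPL10 had 5 against 6, and YGL102C beside RPL28 and YGL123C-A beside RPS2 had the same 5 and 4 reads as their neighbours. YPL197C beside RPL7B had 2 antisense reads on 1 entry, the count left for RPL7B outside SNR59.

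RPL37A had 1 read with Bud22 and 2 in the control, on 1 entry each, too few to compare.

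**Figure D2:**
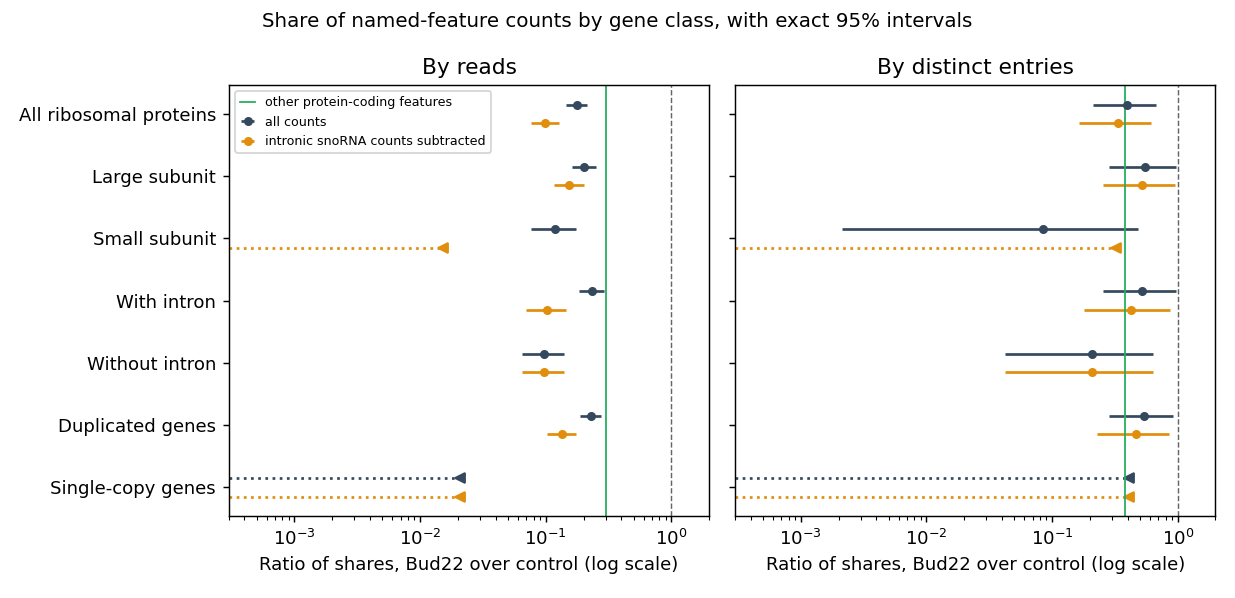
Ratio of the share of all named-feature counts, Bud22 over control (log x axis), for classes of ribosomal protein genes by reads (left) and by distinct entries (right), with exact 95% intervals; arrows mark upper bounds where the Bud22 library had 0 counts, and the green line is the ratio of other protein-coding features (0.301 and 0.384). By reads each of the 7 classes drawn, which do not include the snoRNA hosts on their own, lies left of the green line. Without the YLR154, YLR157 and YLR162 names the line would stand at 0.230 by reads. Genes with an intron (0.232) and duplicated genes (0.227) lie close to that value. By entries most intervals include the green line drawn there (0.384), and the small subunit falls to a bound once snoRNA counts are subtracted.

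The genes with an intron in the coding sequence held 111 reads on 11 entries with Bud22 and 294 on 132 in the control. Those without held 32 reads on 3 entries with Bud22 and 204 on 90 in the control. The ratio was 0.232 (0.185 to 0.290) with and 0.0965 (0.0643 to 0.141) without an intron by reads, and 0.523 (0.255 to 0.966) and 0.209 (0.0423 to 0.631) by entries. The gap by reads went with the hosts. With snoRNA counts subtracted, genes with an intron held 37 reads on 8 entries with Bud22 and 223 on 117 in the control, a ratio of 0.102 (0.0701 to 0.145) by reads and 0.429 (0.181 to 0.873) by entries. Both classes rested on 1 gene each for nearly all of their remaining Bud22 reads, RPL18B with an intron and RPL8B without. In the control, 59 of 91 genes with an intron had a read (64.8%, 54.1 to 74.6) and 38 of 46 without (82.6%, 68.6 to 92.2).

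Within each subunit the split by intron gave the following. Large subunit genes with an intron held 82 reads on 10 entries with Bud22 and 207 on 88 in the control, and large subunit genes without an intron 32 on 3 with Bud22 and 139 on 60 in the control. Small subunit genes with an intron held 29 reads on 1 entry, all on RPS22B, with Bud22, against 87 on 44 in the control. The 18 listed small subunit genes without an intron had 0 reads with Bud22, against 65 reads on 30 entries in the control, an upper bound of 0.821 for the entry ratio.

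The genes of the stalk proteins, which form the lateral stalk of the large subunit where translation factors bind, had no read with Bud22. RPP0, the base of the stalk, had 12 control reads on 5 entries, and RPP1A and RPP1B, which bind to it, had 10 on 4 and 6 on 5. All 5 stalk genes had 0 reads with Bud22 and 35 on 18 entries in the control. The upper bound of the read ratio was 0.0684 and that of the entry ratio was 1.43, so a lower share was not detectable by entries.

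Other members at the top of the control list were also without reads in the Bud22 library. RPL4A and RPL4B, copies for 1 large subunit protein, had 10 reads on 5 entries each in the control. RPL5, whose protein binds 5S rRNA before it joins the ribosome, had 10 on 5, and RPL26B had 8 on 5. Among small subunit genes, RPS23A had 9 reads on 6 entries, RPS12 7 on 6, RPS1A 8 on 2 and RPS4B 6 on 4. None of these was lower by entries singly: for 0 against 6 entries the upper bound of the ratio was 5.33. Summed over the 91 members without Bud22 reads, 386 reads on 193 entries in the control gave an upper bound of 0.121 by entries, a sum over members taken for having no Bud22 reads and therefore a description.

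Taken one by one, a member was called higher or lower if both libraries together gave at least 10 reads, the shares differed 2-fold or more, and the interval did not include 1. Of 11 measured members, RPL8B and RPS22B were higher (18.2%, against 20.7% of 174 measured protein-coding features) and 8 were lower (72.7%, against 66.1%). Both shares are near those of protein-coding features at large. No member was higher without rRNA in the total, with a 99% interval or at 4-fold. The 8 included RPL7B and 6 genes without a Bud22 read, RPL4A, RPL4B, RPL5, RPL8A, RPP0 and RPP1A. These 6 met the minimum through the control alone. At 0 against 10 reads the upper bound was 0.275, so the minimum fixed their calls as lower. The same held for 96 of the 174 measured protein-coding features, which had no Bud22 read. All Bud22 reads of RPL7B and of RPS22B were matched by their intronic snoRNAs, so the calls of these genes are not calls on the mRNA alone. By entries 2 members were measured. RPL18B was higher, where 8.11% of 74 measured protein-coding features were, and RPL7B was neither higher nor lower, where 36.5% were lower. The minimum left out 5 members with 8 or 9 reads and took in 5 with 10 to 12, none of which had a read with Bud22.

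Many ribosomal protein genes come in paralogue pairs, an A and a B copy. Of 57 pairs in the reference table, leaving aside the stalk genes, 5 had a read with Bud22 and 49 in the control. With Bud22, 1 pair had reads on both copies. In the control 26 pairs had reads on both copies, 10 on the A copy alone and 13 on the B copy alone, and the A copy held more entries in 18 pairs and the B copy in 18.

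Copies with equal counts were common in the control. Of the 26 pairs, 9 had the same reads and the same entries on both copies, among them RPL11, RPL2, RPL35, RPL4, RPS18, RPS29 and RPS30. RPL4A and RPL4B had 10 reads on 5 entries each. RPL2A and RPL2B, and RPL11A and RPL11B, had 5 on 3 each, and RPS18A and RPS18B 5 on 1 each. Whether equal counts are the same reads counted at both copies was not tested. With each pair counted once, by its more counted copy, the ratio for all members was 0.217 (0.178 to 0.263) by reads.

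Other pairs differed in the control. RPL8A and RPL8B had 20 and 9 reads, RPS23A and RPS23B 9 and 3, RPS1A and RPS1B 8 and 2, and RPS4A and RPS4B 3 and 6. RPL7A and RPL7B had 8 and 67, of which the intronic snoRNAs matched 6 and 65, so that both copies had 2 reads on 1 entry outside the snoRNA. RPL7 was the pair with the largest difference between copies in the control, and outside the snoRNAs its copies were equal.

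**Figure D3:**
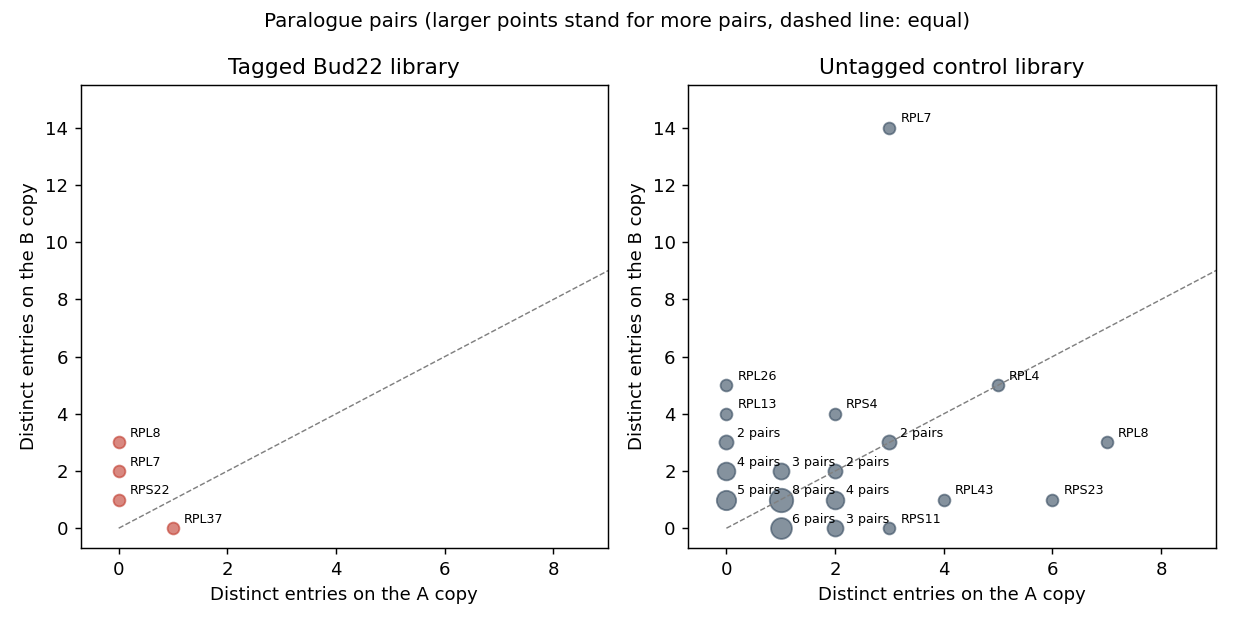
Distinct entries on the A copy (x axis) and the B copy (y axis) of the paralogue pairs with reads, 1 pair left out, in the Bud22 library (left) and the control (right); the dashed line marks equal counts. With Bud22, 3 pairs lie above the line and RPL37 lies below it, whereas the control pairs spread to both sides, with RPL7 (3 and 14 entries) farthest from the line.

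Genes in duplicate held all 143 reads with Bud22, against 387 reads on 164 entries in the control. The 23 single-copy genes, counting the stalk genes, of which RPL30 alone is not among the 97, held 0 reads with Bud22 and 111 reads on 58 entries in the control. The upper bound of their entry ratio was 0.412 over all named features and 1.07 as a share of protein-coding entries. The second bound includes an equal share.

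Other genes of the translation machinery were mostly without Bud22 reads too, as were most protein-coding genes at large, with an exception. Of 8 translation elongation genes, TEF1 and TEF2, which encode the same elongation factor 1 alpha, had 151 reads on 4 entries each with Bud22 and 57 and 59 reads on 24 entries each in the control. Their ratios were 1.63 (1.19 to 2.25) and 1.57 (1.16 to 2.17) by reads and 1.05 (0.264 to 3.04) by entries. EFT1 and EFT2, copies for elongation factor 2, had 0 reads with Bud22 and 38 and 34 in the control, and YEF3 had 0 with Bud22 and 24 in the control. It was not tested whether the same reads were counted at both copies, TEF1 and TEF2 or EFT1 and EFT2. Of 7 measured by reads 5 were lower and none higher, where 66.1% of protein-coding features were lower and 20.7% higher. By entries 0 of 5 passed either way, where 36.5% were lower and 8.11% higher.

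Of 12 genes for ribosome-associated and ribosomal protein escort factors, 4 had control reads (ASC1 5, STM1 4, RRB1 3 and TSR2 1) and none had a read with Bud22. Of 6 transcription factors of ribosomal protein genes, 5 had control reads, SFP1 the most with 5, and none had a read with Bud22. Among all protein-coding genes only 1.59% had a read with Bud22. The upper bounds of the entry ratio were 4.35 for the first list and 5.33 for the second, so a lower share was not detectable by entries. Among the genes of the mitochondrial list taken by name, MRPS16 held all 92 reads with Bud22, on 2 entries, against 5 reads on 3 entries in the control. Its ratio was 11.3 (4.68 to 35.7) by reads and 4.18 (0.349 to 36.5) by entries, an interval including 1.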

How the data were processed

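The authors deposited raw counts for each annotated feature, on the sense and the antisense strand. Per the file headers, pyReadCounters (Counters 1.2.1) made them from aligned reads. The column headed as a number of reads is taken as the number of distinct entries, an inference from its values, and was limited to the sense count. Not given in the sources used here are the alignment settings, trimming, treatment of duplicates, genome build and release of the annotation. Coordinates are therefore left out. The R64 reference table was used for names and neighbours only. It holds no exon structure, so introns come from a hand-written list of 91 genes with an intron in the coding sequence. An intron in an untranslated region alone was not counted. Alternatives were the strand, entries, other totals, the top member left out, each pair counted once, other call thresholds and, chosen after seeing the data, subtraction of snoRNA counts and shares of protein-coding entries.

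The libraries held 317922 reads (Bud22) and 296925 (control). Intergenic regions, which name no gene and held 15.8% and 13.7% of the sense overlaps, were left out of the totals of 215982 and 132895 sense reads and of 5920 and 37130 entries. Shares have exact Clopper-Pearson and ratios exact conditional binomial 95% intervals, computed in Python 3.11.15 with scipy 1.17.1. The calling script was tested on simulated data with independent reads. That test does not cover the repeated reads of single entries in these libraries. Members and lists were chosen with earlier results of these data known. Named were members with a Bud22 read, the 10 with most control reads and with most control entries (ties included), the snoRNA hosts, and the 10 most counted pairs. Single values of a few members are not reported here, and sums hold all members.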

Additional observations from a re-analysis of the deposited data

How the results depend on the processing

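No paired analysis was possible because each group has 1 library, and no replicate could be left out. Counting both strands kept every ratio within its interval. Ratios are given in the order all members, small subunit, large subunit, with intron, without intron and snoRNA hosts, with main values of 0.177, 0.117, 0.203, 0.232, 0.0965 and 0.562. Without rRNA in the total they were 0.112, 0.0741, 0.128, 0.147, 0.0609 and 0.355. As a share of protein-coding reads they were 0.596, 0.396, 0.684, 0.783, 0.325 and 1.90, and without the reading frames of YLR154, YLR157 and YLR162 names 0.777, 0.517, 0.892, 1.02, 0.425 and 2.47. The last of each, and 1.02, lie on the other side of 1. Without the member of the class most counted in each library they were 0.140, 0, 0.152, 0.179, 0 and 1.27, where the zeros have 0.0168 and 0.0131 as upper bounds. By distinct entries they were 0.396, 0.0848, 0.551, 0.523, 0.209 and 0.990, and the large over small quotient was 6.50 against 1.73. As a share of protein-coding entries, added after seeing the data, they were 1.03, 0.221, 1.43, 1.36, 0.544 and 2.58, so that 4 turned above 1, with intervals including 1 in all 6. With snoRNA counts subtracted, also added later, they were 0.0994, 0, 0.154 and 0.102 by reads and 0.333, 0, 0.519 and 0.429 by entries for the first 4, and 0 for the hosts. The quotient then has no value, as the small subunit count is 0. Counting each pair once gave 0.217 for all members and left the other 5 classes within their intervals. The number of higher members was 2, and 0 at 4-fold, with a 99% interval or without rRNA in the total, 1 by entries and 3 as a share of protein-coding reads. The number of lower members was 8, and 49 without a minimum, 1 with at least 30 reads and 0 by entries. The causes of these shifts were not tested. Depth limits most single members: with 5920 entries in the Bud22 library, 0 against 5 control entries allows a ratio of up to 6.84.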
